A study of Papio anubis and Macaca fascicularis and Castor canadensis with 48 samples.

Results

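Kidney gene expression was compared between baboon (Papio anubis) and long-tailed macaque (Macaca fascicularis), both Old World monkeys. The 11 libraries with these species and kidney in their labels, out of 48 in the series, make up the comparison. Of these, 6 are baboon kidney (replicates 1 to 6) and 5 are macaque kidney (replicates 1, 2, 3, 5 and 6). Every library is labelled as male, adult and wild type, no label names a treatment, and the organs of both species came from 1 primate research center. Bulk RNA sequencing was done on total RNA from organs frozen after removal. The series title names longevity across mammals as its subject. Which part of the kidney was taken, and whether the replicates are separate animals, is not stated in the labels, so p-values measure the spread between these libraries.

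The kidney filters blood and recovers most of what it filters. Its cortex holds the glomeruli and the proximal tubules, which take back glucose, amino acids and phosphate, and its medulla holds the loops of Henle and collecting ducts that concentrate urine. In bulk tissue, fewer cells of a type and less RNA per cell cannot be told apart, and the share of cortex and medulla in a piece of kidney sets the mixture. The labels do not say how monkey reads came to be counted under mouse IDs. A level near 0 can stand for absent RNA or for reads that were not counted under that ID, and which of these holds for a gene was not tested.

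The rows of the deposited table are mouse Ensembl gene IDs, and none of the 16816 IDs occurred in the baboon gene table used for names. Genes are therefore given by ID, at most 2 in each direction, and other genes by their values alone. Marker genes of kidney cells could not be looked up for the same reason. The tissue label was instead checked by rank correlation across genes (Spearman's rho), as a description. Baboon kidneys had a median rho of 0.984 with each other, 0.960 with macaque kidneys and 0.841 with baboon livers. Macaque kidneys had a median rho of 0.984 with each other and 0.842 with macaque livers. Both species' kidneys lay nearer to the single bear kidney (medians 0.826 and 0.827) than to the bear liver (0.777 and 0.775).

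The total count was 15802387 to 18679932 per library in baboon kidney and 17431058 to 21027879 in macaque kidney. Totals did not differ beyond the spread between libraries (exact permutation test, two-sided, p = 0.0996, adjusted p = 0.139 over 4 library measures). The 10 most counted genes took 12.5% to 17.0% of the counts in baboon and 11.7% to 22.1% in macaque, and the ranges overlapped. At least 1 CPM (counts per 1000000 counts of the library) was reached by 12242 to 12595 genes in baboon and 12227 to 12388 in macaque. On the first principal component, which held 57.1% of the variance, all baboon kidneys lay on 1 side and all macaque kidneys on the other. The second held 9.17%, and along it the libraries of both species overlapped.

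Nearly a balanced number of genes was called higher in each species, a split that depends on where the scaling of the libraries places 0. Of 13082 genes tested with edgeR's quasi-likelihood F test, 4046 (30.9%) were called at a Benjamini-Hochberg adjusted p under 0.05. Of these, 2002 (15.3%) were higher and 2044 (15.6%) lower in baboon. Most differences were small: the median absolute log2 fold change was 0.28 over all tested genes and 0.17 over the 9036 not called, where the median standard error (SE) was 0.15. A change of at least 2-fold was called for 1419 genes (10.8%). The libraries of the species did not overlap for 2441 genes (18.7%), on CPM scaled with TMM (trimmed mean of M-values) factors. With RLE factors in the test 2050 genes were called higher and 2005 lower in baboon, and with upper-quartile factors 2152 and 1904.

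The calls were separated into genes near absent in 1 species and graded changes. A gene was near absent when every library of a species lay under 1 CPM and every library of the other at 10 CPM or more. This held for 25 of the 16816 genes (0.149%), 10 near absent in macaque kidney (0.0595%) and 15 near absent in baboon kidney (0.0892%). All 25 were also called by edgeR, with thresholds on the same counts. The other 4021 called genes are the graded ones, 1992 higher and 2029 lower in baboon.

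**Figure D1:**
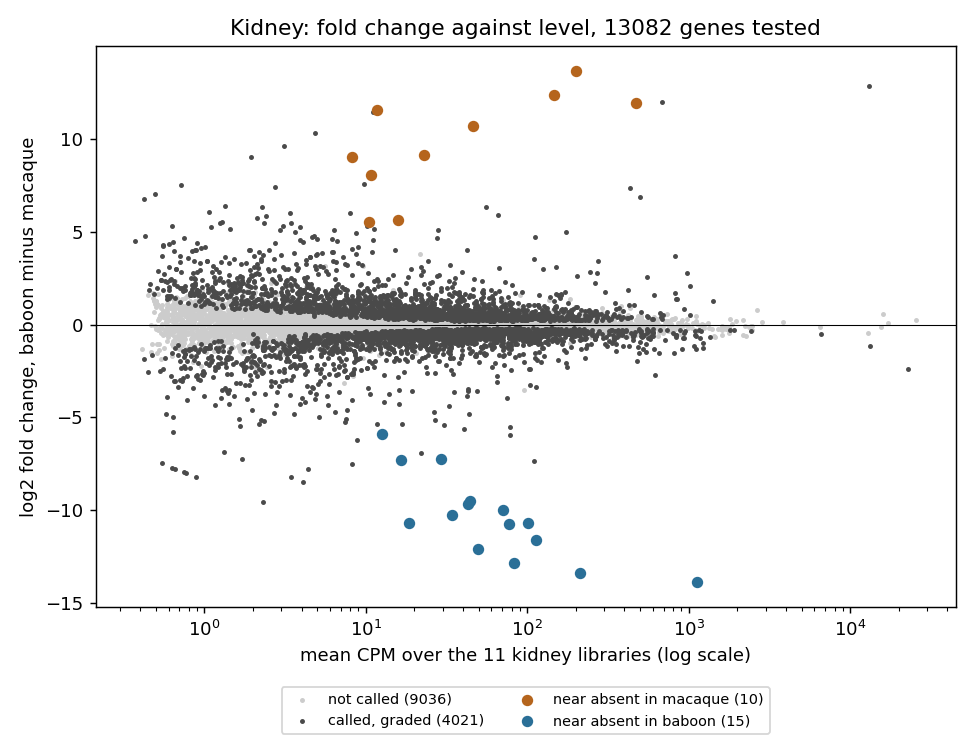
Each point is 1 of 13082 genes, with its mean CPM over the 11 kidneys (x, log scale) and its log2 fold change, baboon minus macaque (y). The 25 near-absent genes (coloured) lie among the 92 genes whose absolute log2 fold change is 5 or more, and the graded genes (dark grey) fill the range from near 0 outward.

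Among graded genes, 1277 had an absolute log2 fold change under 0.5, 1350 had 0.5 to 1, 881 had 1 to 2, 275 had 2 to 3, 171 had 3 to 5 and 67 had 5 or more. In all, 65.3% of them changed by less than 2-fold. The median absolute log2 fold change was 0.78 for those higher in baboon and 0.66 for those lower. With TMM scaling, libraries did not overlap for 1148 graded genes higher and 1217 lower in baboon, and on unscaled CPM for 1288 and 891. In the highest of these size classes, 48 of the 67 graded genes were under 1 CPM in the lower species but did not reach 10 CPM in every library of the higher. These 67 genes had a median of 5.70 CPM in the higher species, so many of the steepest ratios rested on few counts.

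**Figure D2:**
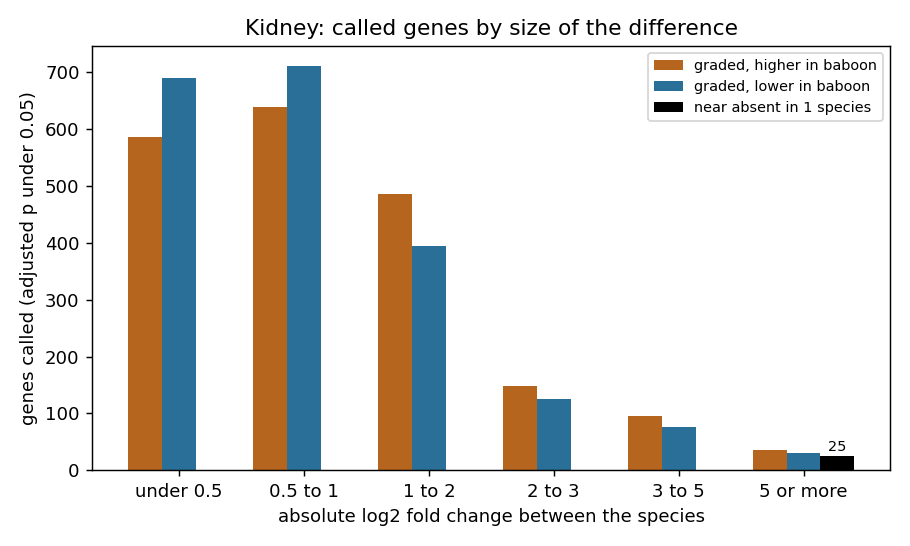
Bars count called kidney genes by absolute log2 fold change, for graded genes higher in baboon, graded genes lower in baboon and near-absent genes. Near-absent genes appear only in the class of 5 or more, with 25 genes beside 36 graded genes higher and 31 lower in baboon.

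ENSMUSG00000027447 was the most counted of the genes near absent in macaque. In baboon kidney it ranged from 629 to 1070 CPM with a median of 899. In macaque kidney it had 0, 0, 0.112, 0 and 0.931 CPM in replicates 1, 2, 3, 5 and 6, which is 20 counts in all. The groups were far apart, and 18 of the 20 macaque counts lay in replicate 6. Its log2 fold change was 11.91 ± 0.65 (SE, edgeR adjusted p = 7.27e-08), and 14.60 without macaque replicate 6. With so few macaque counts, the size of this value depends on the prior count that edgeR adds, which the SE does not cover. Liver showed the same division, with 459 CPM ± 53.9 in baboon (SD, n = 6) and no count in 6 macaque livers. Baboon brain had 882 CPM ± 149 (n = 6) and 6 macaque cerebella had no count.

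ENSMUSG00000064360 was the most counted gene near absent in baboon. Macaque kidneys had 1224, 3623, 3436, 2190 and 1863 CPM in replicates 1, 2, 3, 5 and 6. Baboon kidneys ranged from 0 to 0.860 CPM with a median of 0, and 16 of their 18 counts lay in replicate 5. The log2 fold change was -13.83 ± 0.73 (edgeR adjusted p = 4.89e-08), and -16.39 without baboon replicate 5. As for the gene before, the size of this value depends on the prior count. In liver the species were divided likewise, with 649 CPM ± 183 in macaque and 0.0260 ± 0.0403 in baboon (SD, n = 6 each). The kidney and liver differences did not differ by test (kidney minus liver 0.49 ± 1.19 on the log2 scale, edgeR adjusted p = 0.857). Bear kidney had 5463 CPM of this gene in its 1 library.

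**Figure D3:**
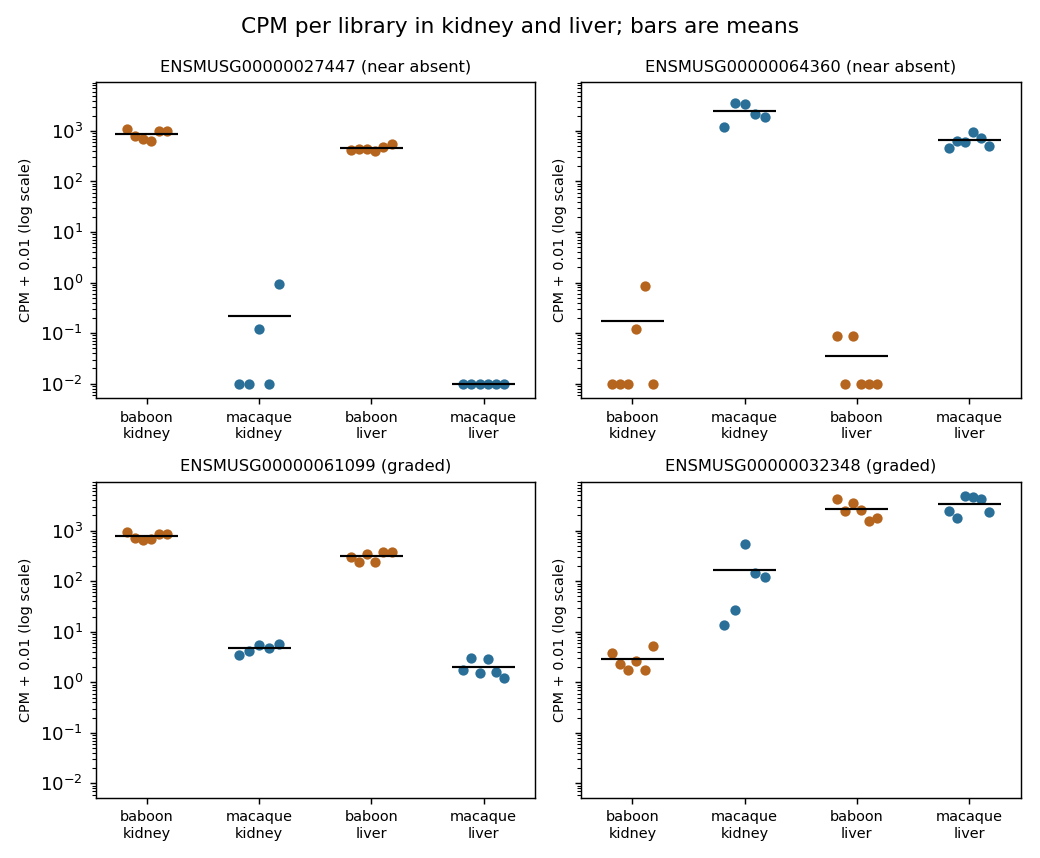
Points are CPM + 0.01 per library (log scale) of the 4 genes given by ID, in kidney and liver of baboon (brown) and macaque (blue), and bars are means. The upper genes are near absent in all kidneys and livers of 1 species. The lower left gene is low in macaque in both organs, and the lower right gene differs between the species in kidney while its livers overlap.

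Other organs of the same species split the 25 genes into patterns. For 13 of them, 6 low in macaque and 7 low in baboon, every library of the low species lay under 1 CPM in all 3 organs sampled (kidney, liver, and brain or cerebellum). Among these 13, 12 were at 10 CPM or more in every liver of the other species. In 9 they were so also in every brain or cerebellum library. Their levels in the species that had them ran from 19.7 to 867 CPM in kidney.

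In 6 of the 25 genes, the low species had at least 10 CPM in every library of another organ. Reads of that species were counted for these IDs in that organ, and how its kidney reads were assigned was not tested. Macaque was low in 2 of these 6 genes. One had 28.7 CPM ± 5.19 in baboon kidney (SD, n = 6) and 0.551 in macaque kidney, but 86.9 ± 19.8 in macaque cerebellum (n = 6). Its livers were divided as its kidneys, with 11.7 CPM in baboon and 0.0419 in macaque. The other had 15.1 CPM ± 3.34 in baboon kidney and 0.0190 in macaque kidney. In liver that gene had 113 CPM in baboon and 196 ± 24.9 in macaque (n = 6), a difference in the other direction (log2 fold change -0.66, edgeR adjusted p = 0.0233). The test of its kidney difference against its liver difference gave 9.61 on the log2 scale (edgeR adjusted p = 2.02e-11). Its kidney values entered both its choice and this term, so the term is a description.

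Baboon was low in the other 4 of these 6, and each of them was counted in baboon brain. Macaque kidney had 94.9 CPM ± 23.1 of the first (n = 5), baboon kidney 0.116 and baboon brain 34.4 ± 8.57 (n = 6). Its livers were divided as its kidneys, with 54.8 CPM in macaque and 0.0138 in baboon. The second had 63.8 CPM ± 20.1 in macaque kidney, 0.435 in baboon kidney, 6.27 in baboon liver and 29.5 ± 10.3 in baboon brain. Its difference in kidney was larger than in liver (kidney minus liver -6.75 on the log2 scale, edgeR adjusted p = 2.18e-07). Here too the kidney values entered both the choice of the gene and the term. In macaque kidney 36.2 CPM (12.6 to 58.4) was counted for the third, with 0.233 in baboon kidney and 161 ± 33.5 in baboon brain. It was also under 1 CPM in the livers of both species. The fourth had 27.3 CPM ± 1.38 in macaque kidney, 0.474 in baboon kidney and 33.4 ± 7.46 in baboon brain. In liver it had 9.31 CPM in macaque and 0.0799 in baboon.

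The remaining 6 genes, ENSMUSG00000064360 among them, lay between these patterns, with some libraries of another organ between 1 and 10 CPM. One of them, the second most counted gene near absent in baboon, had 466 CPM ± 44.9 in macaque kidney (SD, n = 5) and 0.0358 in baboon kidney. Every liver of both species had under 1 CPM of it. Bear kidney had 1015 CPM of it in its 1 library. Of all 25 genes, 17 were at 10 CPM or more in the bear kidney library and 3 had no count there. The rule chose them at 10 CPM or more in a monkey kidney, so these counts are a description. In liver 23 of the 25 were tested, 21 were called in the direction of kidney and 1 in the other. Of all genes tested in liver, 24.8% were called in either direction. The counts left in the low species were few. For 11 genes they came to 1 to 3 read pairs over all its kidneys, and 1 gene had no count in any macaque kidney. That gene had 21.6 CPM ± 4.15 in baboon kidney (SD, n = 6), at least 325-fold higher, with the floor set at 3 read pairs over the macaque kidneys together.

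**Figure D4:**
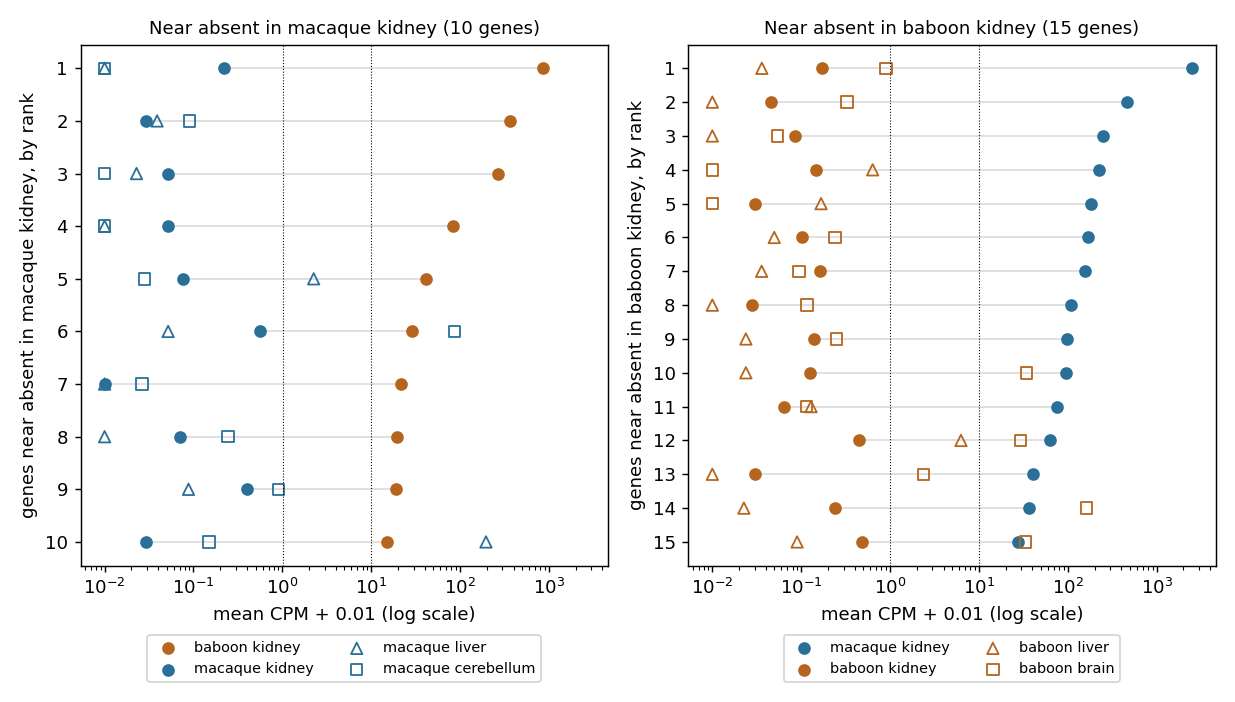
Mean CPM + 0.01 (x, log scale) of the 10 genes near absent in macaque kidney (left) and the 15 near absent in baboon kidney (right), ordered by level in the other species (y). Filled points are kidneys, triangles and squares the liver and the cerebellum or brain of the low species, and dotted lines mark 1 and 10 CPM. Most open symbols stay left of 1 CPM, and 6 genes have one to the right of 10 CPM.

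The same rule applied to liver found 20 genes near absent in 1 species (0.119%), 11 in macaque (0.0654%) and 9 in baboon (0.0535%). Kidney and liver shared 14 of them, 56.0% of the kidney genes and 70.0% of the liver genes, and for all 14 the low species was the same. The organs share no library, though same-numbered kidneys and livers may come from 1 animal.

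A fixed level of 1 CPM leaves out genes that were very abundant in the other species. With a relative threshold chosen after the data were seen, the highest library of the lower species had to lie under 1% of the lowest library of the higher. This added 4 genes and left out 6 of the 25. The most counted added gene had 23816 CPM ± 5201 in baboon kidney (SD, n = 6) and 0 to 13.1 CPM in the macaque kidneys. Its livers had 6227 CPM ± 1396 in baboon and 0.130 ± 0.150 in macaque, and bear kidney had 75047 CPM. Another had 1259 CPM ± 112 in baboon kidney and 0.290 in macaque kidney. The only one low in baboon had 240 CPM ± 8.44 in macaque kidney and 1.57 ± 0.455 in baboon kidney. All 4 were called the same way in liver, beside 24.8% of all genes called there in either direction. For none was the difference between the organs called (edgeR, lowest adjusted p = 0.0682), beside 1361 of 13600 genes tested. The lowest value was that of the gene at 1259 CPM, which had no count in any macaque liver. Its term was -5.89 on the log2 scale. A term that was not called does not show that the organs differed alike.

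ENSMUSG00000061099 was the remaining one of these 4, and it counts as graded only under the fixed level of 1 CPM. Among graded genes with every library above 0, it had the largest rise in baboon (means of at least 20 CPM in the higher and 2 CPM in the lower species, groups not overlapping). It ranged from 662 to 956 CPM in baboon kidney with a median of 791. Macaque kidneys had 3.54, 4.13, 5.36, 4.85 and 5.69 CPM in replicates 1, 2, 3, 5 and 6. The libraries of each species lay close together and the groups did not overlap. Its log2 fold change was 7.33 ± 0.20 (SE; edgeR adjusted p = 8.20e-11), and that in liver was 7.41 ± 0.28 (edgeR adjusted p = 6.30e-10). The organs did not differ by test (kidney minus liver -0.05 ± 0.29, edgeR adjusted p = 0.943). Baboon brain had 1692 CPM ± 131 of it and macaque cerebellum 8.32 ± 1.58 (SD, n = 6 each).

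ENSMUSG00000032348 had the most negative fold change by the same rule and a different pattern. Macaque kidneys had 13.7, 26.5, 538, 147 and 121 CPM in replicates 1, 2, 3, 5 and 6. Baboon kidneys ranged from 1.71 to 5.17 CPM with a median of 2.46. The groups did not overlap, but the macaque kidneys themselves spread widely, with replicate 3 the highest. The log2 fold change was -5.94 ± 0.87 (edgeR adjusted p = 0.000382), and -4.76 without macaque replicate 3. Its livers had 2678 CPM ± 1004 in baboon and 3361 ± 1287 in macaque (SD, n = 6 each), and differed by -0.18 ± 0.31 on the log2 scale (edgeR adjusted p = 0.717). The difference between the organs was called (kidney minus liver -5.74 ± 0.88, edgeR adjusted p = 0.000149). The kidney contrast that chose this gene also enters that term, so it is a description. Genes far higher in bear liver than in bear kidney, a group described further on, took 1.87% of the counts in macaque replicate 3 and 1.71% to 1.94% over all macaque kidneys. Their part in this result was not tested.

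The same rule was extended to the 8 largest and the 8 most negative graded changes, out of 736 and 541 genes that met it. The 8 higher in baboon had log2 fold changes of 3.45 to 7.33. All 8 were called in the same direction in liver, beside 24.8% of all genes called there in either direction. For none was the difference between the organs called (edgeR, lowest adjusted p = 0.111), beside 1361 of 13600 genes tested. One of the 8 had 1431 CPM ± 47.1 in baboon kidney (SD, n = 6) and 105 ± 7.34 in macaque kidney (n = 5). It differed by 3.70 ± 0.09 on the log2 scale in kidney and by 3.68 ± 0.12 in liver.

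The 8 lower in baboon had log2 fold changes of -5.94 to -3.76, and 5 of them were tested in liver. Of these 5, beside 24.8% of all genes called in liver, 3 were called in the same direction and 2 were not called. An example of the former had 153 CPM ± 10.1 in macaque kidney (SD, n = 5) and 10.3 ± 2.73 in baboon kidney (n = 6). Its difference was -3.95 ± 0.19 on the log2 scale in kidney and -3.99 ± 0.16 in liver. For the 2 not called in liver, ENSMUSG00000032348 and a gene with 85.6 CPM ± 92.2 in macaque kidney and 6.23 ± 2.58 in baboon kidney, the difference between organs was called (edgeR adjusted p = 0.0479 for the second). Both were chosen by their kidney contrast, which also enters this term. In both, the macaque kidneys had an SD above their mean.

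Spread within a species differed among graded genes. Among 593 graded genes of at least 2-fold, with means of at least 10 CPM in the higher and 2 CPM in the lower species, 174 stayed within a 2-fold range in both species. Their median absolute log2 fold change was 1.28, and they were evenly divided with 87 in each direction. A range of 10-fold or more was seen in 7 of the 593 genes in baboon and in 15 in macaque. Among those 15, macaque replicates 1 and 6 were the highest library for 5 genes each and replicate 3 for 3. No single macaque library held most of the extremes.

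The share of genes called hardly followed the level, whereas the share called at 2-fold or more did. Called genes made up 28.5% to 32.4% of the genes in 5 classes of mean CPM, from under 1 to 1000 or more. Called changes of at least 2-fold made up 30.7% of the 514 genes under 1 CPM and 6.02% of the 7376 genes at 10 to 100 CPM. Under 1 CPM, 158 of the 159 called genes were at 2-fold or more, since few counts allow only large changes to be called. The filter can also pass such a gene through the species where it is higher, so these shares are a description. Their share was 4.85% of the 1978 genes at 100 to 1000 CPM and 12.7% of the 71 genes above.

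The most counted genes were largely the same in both kidneys. Among the 10 with the highest mean CPM, 9 were shared between the species, and among the highest 100, 77 were. Of the 71 genes with a mean of 1000 CPM or more, 4 were higher in baboon, 18 were lower and 49 were not called. Their share called was 31.0%, beside 30.9% of all tested genes, of which 15.3% were higher and 15.6% lower. Their median log2 fold change was -0.18, beside 0.0048 over all tested genes. With RLE or upper-quartile factors the counts were 5 higher and 17 lower, and with DESeq2 they were 6 and 20. With the replicate number as a block they were 4 and 9, so the tilt was smaller. In the main fit, the 4 higher genes had absolute log2 fold changes of 0.52 to 12.82 with a median of 1.69, and 3 of them were at 2-fold or more. The lower genes differed by absolute log2 fold changes of 0.29 to 13.83 with a median of 0.65, and 6 of the 18 by at least 2-fold. As a sum, the 71 genes took 21.5% to 25.8% of the counts per baboon library and 21.8% to 31.1% per macaque library, and these ranges overlapped.

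Genes were also grouped by the bear libraries, which no test between the monkeys uses. This grouping was made after the data were seen and is a description. A gene was kidney-high when bear kidney had at least 10 CPM and at least 8 times the level of bear liver, and liver-high in the opposite case. Of 621 kidney-high genes tested, 109 were higher in baboon kidney, 115 were lower and 397 were not called. Their share called was 36.1%, beside 30.9% of all genes, and 14.3% were called at 2-fold or more, beside 10.8%. Their median log2 fold change was -0.02, beside 0.0048 for all. These kidney-high genes took 11.7% to 13.6% of the counts in baboon kidneys and 11.9% to 13.4% in macaque kidneys. Of all 650 genes in the group, 7 were near absent in 1 species, beside 25 of all 16816 genes (0.149%). Both rules require 10 CPM or more in a kidney.

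Of 453 liver-high genes tested, 87 were higher in baboon kidney, 64 were lower and 302 were not called. The share called was 33.3%, near the 30.9% of all genes, and the median log2 fold change was 0.14. They took 1.79% to 2.08% of the counts in baboon kidneys and 1.71% to 1.94% in macaque kidneys. At 2-fold or more, 21.9% of them were called. The 2251 tested genes whose bear kidney and liver levels were within 2-fold of each other, at 10 CPM or more in both, differed least. Among them 287 were higher, 336 lower and 2.89% called at 2-fold or more, and the median absolute difference was 0.18 on the log2 scale, beside 0.36 for kidney-high and 0.54 for liver-high genes. The groups were not matched for level. Over all tested genes, the median absolute difference was 0.91 under 1 CPM, 0.54 at 1 to 10 CPM and 0.23 at 10 to 100 CPM. How far level accounts for the contrast between the groups was not tested.

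Beside the graded kidney genes, the same contrast was read in liver, where 2961 of 11948 genes were called (24.8%). Of 3481 graded genes tested in liver, 1296 (37.2%) were called in the same direction, 106 (3.05%) in the other and 2079 (59.7%) were not called. Among genes not called in kidney, 12.5% were called in liver with the sign of their kidney estimate and 5.22% with the other sign. For graded kidney genes of at least 8-fold, 66 of the 117 tested in liver (56.4%) were called in the same direction and 5 in the other.

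Whether a kidney difference departs from that in liver was tested by an interaction term, called for 1361 of 13600 genes (10%). The term took the 23 libraries as independent, though same-numbered kidneys and livers may share an animal. Of the 4021 graded kidney genes, 689 (17.1%) were among them. The term pointed further in the kidney's direction for 586 of these and against it for 103. Among the genes not called in kidney, 6.82% had the term called. Graded genes of at least 8-fold had it called in 97 of 238 cases (40.8%). The kidney contrast itself entered both the choice of these genes and the term, so these shares are a description. For the other graded genes the difference between the organs was not called, which does not show that they differed alike in both.

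**Figure D5:**
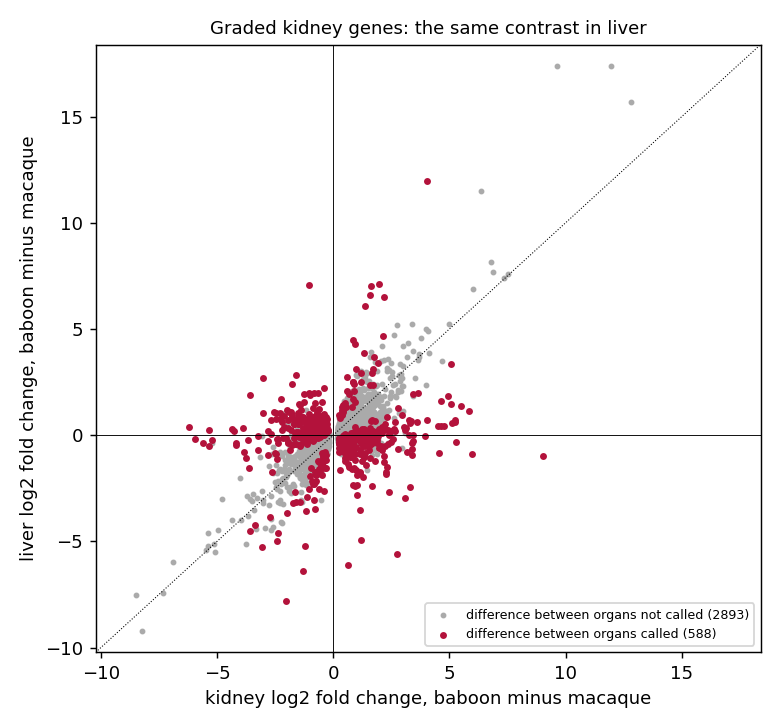
Each point is 1 of 3481 graded kidney genes tested in liver, with its log2 fold change, baboon minus macaque, in kidney (x) and liver (y). Points near the dotted line of equality include genes far from 0 in both organs. The 588 red points, whose difference between organs was called, lie off that line, many of them near a liver difference of 0.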

How the data were processed

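The authors deposited 1 table of raw counts per gene for 48 libraries, with no normalization. Each column bore the name of its sample. Per the submitters' processing notes, STAR and featureCounts were used. No version, genome build or account of how a monkey read reached a mouse ID is given in the sources used here. In the kidneys, 97.7% to 99.1% of counts from 1 to 20 were even, and a read pair was taken as 2 counts where pairs are named.

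The 11 kidney libraries were fitted alone with edgeR 4.0.16 in R 4.3.3 (TMM factors, filterByExpr, quasi-likelihood F test, two-sided, Benjamini-Hochberg over all genes tested), and so were the 12 livers. The interaction used all 23 libraries. DESeq2 1.42.0 was an alternative. The fits were tested on simulated data. Fold changes are baboon minus macaque, and SEs come from the F statistic. Library measures used exact permutation tests in scipy 1.17.1. Members and lists were chosen with earlier results of these data known. The graded genes given by ID have the largest and the most negative log2 fold change among called genes with every library above 0, means of at least 20 and 2 CPM and groups that do not overlap. The near-absent ones have the highest mean CPM. The 38 gene lists fixed as symbols, including cell type markers, could not be matched to the IDs and were not used.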

Additional observations from a re-analysis of the deposited data

Results flagged for a closer look

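A test for a sample standing apart (Dixon) was made on 32 groups of values, and 5 were marked. The groups were 4 library measures in both kidney groups and the 4 genes given by ID in 6 groups of libraries. Chance marks about 1 in 20 among normally distributed values. ENSMUSG00000027447 had no count in macaque liver or cerebellum, and some other groups were mostly 0. That rate therefore does not hold for these groups as a whole. Macaque kidney replicate 6 had 0.931 CPM of ENSMUSG00000027447, while the other macaque kidneys had 0 to 0.112. Baboon kidney replicate 5 had 0.860 CPM of ENSMUSG00000064360, while the others had 0 to 0.110, and baboon brain replicate 5 had 4.57 CPM of it, while the other brains had 0 to 0.374. Macaque kidney replicate 3 had 538 CPM of ENSMUSG00000032348, above 13.7 to 147 in the others. Macaque cerebellum replicate 6 had 10.003 CPM of it, above 1.35 to 2.75.

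The baboon to macaque difference of ENSMUSG00000032348 was marked because it differed between kidney and liver (kidney minus liver -5.74 on the log2 scale, edgeR adjusted p = 0.000149). All 5 macaque kidneys lay above all 6 baboon kidneys, and the livers overlapped. The gene was chosen for kidney groups that do not overlap and for its kidney fold change. The kidney separation was thus set by the choice, and the term is a description.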

How the results depend on the processing

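The kidney count of 4046 calls was 3498 to 3858 with 1 library left out, and 2906 to 4801 under other factors, filters, tests, halved counts or more libraries in the fit. Requiring a 2-fold change left 1419. Each of the 4 genes given by ID was called with the same sign in all 20 alternatives run for it. The highest adjusted p was 0.0104, for ENSMUSG00000032348 with the replicate block (edgeR). The near-absent count of 25 was 25 to 27 with 1 library left out, 18 with a lower limit of 0.5 CPM, 3 with 0.1 CPM (all 3 low in macaque), 35 with an upper limit of 5 CPM, 25 on TMM-scaled CPM, 23 with the relative threshold and 55 on group means. A limit of 0.1 CPM is about 2 counts in these libraries. The liver count of 2961 was 1896 with a mean of at least 10 CPM required, which tests fewer genes, 4969 in a fit of all 48 libraries, where the cause was not tested, and 2479 to 2853 with 1 library left out. The interaction count of 1361 was 1146 to 1423 with 1 library left out and 1047 to 1897 otherwise.

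Same-numbered baboon and macaque kidneys did not deviate together (r from -0.08 to 0.06 over 5 pairs). With the replicate number as a block across the species, 2952 kidney genes and 2272 liver genes were called. The interaction was blocked on species and number together, and 1415 terms were called. The kidney block left out baboon replicate 4, which has no macaque partner. The interaction block left out macaque liver replicate 4, which has no kidney of its number. Of the 1415 interaction terms, 656 were positive and 759 negative, beside 708 and 653 without the block, and 1078 were called in both fits. Among graded kidney genes 681 (16.9%) then had the term called, 569 further in the kidney's direction and 112 against it. The block also called the term for ENSMUSG00000027447 (adjusted p = 0.00856, beside 0.0764 without) and for the added gene at 1259 CPM (0.0038, beside 0.0682). Both had no count in any macaque liver, so the size of the term depends on the prior count. It ended the call for the near-absent gene counted in macaque cerebellum (0.0627, beside 0.0109). Of the 71 kidney genes at 1000 CPM or more, 4 were then higher and 9 lower in baboon, beside 4 and 18 without the block. Same-numbered kidney and liver libraries of 1 species correlated at 0.10 to 0.34 in baboon and 0.23 to 0.30 in macaque, and all 11 kidneys correlated best with the liver of their own number, a hint from the data.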

Other observations

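The few counts left in near-absent genes were not evenly spread over libraries. Over the 10 genes near absent in macaque kidney, replicate 6 held 34.8% of the counts left, replicate 1 held 24.2% and the others 9.09% to 16.7%. In the 6 of them under 1 CPM in all 3 organs of macaque, replicate 6 held 72.2%, and 18 of its 26 counts there were of ENSMUSG00000027447. Over the 15 genes near absent in baboon kidney, replicate 5 held 28.3% of the counts left and the others 10.6% to 16.8%, and 16 of its 64 counts were of ENSMUSG00000064360. In the 7 of them under 1 CPM in all 3 organs of baboon, replicates 4 and 5 held 27.6% each. Next to the limits of the rule, the gene nearest inside for macaque reached 0.931 CPM in its highest macaque library and the gene nearest outside 1.45. For baboon these values were 0.985 and 1.32. On the other side, the lowest library of the higher species had 10.5 CPM for the gene nearest inside and 7.62 for the gene nearest outside when macaque was low, and 12.6 and 8.61 when baboon was low.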
